A study of Mus musculus with 16 samples.

Results

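The genes described here encode the enzymes of phase II drug metabolism, which attach a water-soluble group to a drug, hormone or waste product. They were taken by symbol: UDP-glucuronosyltransferases (Ugt1, Ugt2 and Ugt3 families), soluble glutathione S-transferases (classes alpha, mu, pi, theta, kappa, omega and zeta) and sulfotransferases (Sult). The rule found 52 members among 18435 genes, of which 16 were Ugt, 22 Gst and 14 Sult genes. All 52 were listed in the table of liver tumors and 35 in the table of subcutaneous tumors.

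UDP-glucuronosyltransferases sit in the endoplasmic reticulum and transfer glucuronic acid from UDP-glucuronic acid to bilirubin, steroids, bile acids and drugs. Glutathione S-transferases join the tripeptide glutathione to reactive electrophiles, and cytosolic sulfotransferases transfer sulfate from the donor PAPS to steroids, bile acids and phenols. Hepatocytes carry most of this work in the body, while carcinoma cells and many other tissues express some members, above all the pi class transferase Gstp1. Conjugates leave the cell through exporters of the Abcc family.

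Tumors were grown from 4T1 cells, which derive from a BALB/c mammary carcinoma and stand in for triple-negative breast cancer, and the series asked how tumors of the liver and of the primary site respond to paclitaxel, a microtubule-stabilising drug. All mice were wild-type female BALB/c mice aged 6 weeks. The 16 libraries formed 4 groups. They were 5 liver tumors given paclitaxel (post_Liver), 5 untreated liver tumors (pre_Liver), 3 subcutaneous tumors given paclitaxel (post_SC) and 3 untreated subcutaneous tumors (pre_SC). Liver tumors came from 200000 cells placed under the liver capsule, and those called subcutaneous from 400000 cells placed in the mammary fat pad. The effects of site and of the number of cells placed cannot be told apart. Growth lasted 15 days, and intraperitoneal paclitaxel (10 mg/kg) was given on 5 occasions a week over 2 weeks. The labels mention PBS controls but do not say whether the untreated tumors were those controls or were taken before dosing, so tumor age may differ between the groups. Nor do they say that each library came from a separate mouse, so p-values measure only the spread between these libraries, which may be technical. RNA came from whole digested tumors and not from sorted cancer cells. In such bulk samples fewer cells of a type and less RNA per cell cannot be told apart.

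Hepatocyte RNA differed greatly among the liver libraries. Over 25 hepatocyte markers the summed level was 4740 to 109300 TPM (transcripts scaled to a fixed total per library) in post_Liver, 42940 to 171000 TPM in pre_Liver, 111.9 to 151.5 TPM in post_SC and 82.24 to 179.6 TPM in pre_SC. The mean log2 level of these markers was 5.46 and 5.29 in post_Liver replicates 2 and 3 and between 8.34 and 10.5 in the other 8 liver libraries, so these 2 libraries stand apart. The called members of the liver response are given with and without them. The depth of the libraries is unknown, since only FPKM (fragments scaled to transcript length and library size) and TPM were deposited, and no interval for counting error can be given. A library of the treated subcutaneous tumors, replicate 2, stands apart for single members named below.

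Within the families some members share sequence, and how reads were divided between them is not given in the sources used here. By stretches of 75 bases in GENCODE transcripts, 24 of the 52 members shared none with another gene and 16 shared more than 20%. Among those 16 is every Ugt1a gene, whose common exons place 57.7% to 100% of the transcript in more than 1 gene. Gstp1 (57.7%), Gstp2 (68.2%), Gsta1 (86.3%) and Sult2a2 (47.2%) are others. Their single values are uncertain. Sult2a8, Sult1c2, Gstp3, Gstm4 and Sult1e1 shared none, and Ugt3a1 shared 1.57%.

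Many members lie in clusters of neighbouring genes (coordinates of GRCm38, GENCODE). The 7 Ugt1a genes occupy chr1:88055388-88220002, the 6 Ugt2b genes chr5:86889767-87254804, the 7 Gstm genes chr3:107895821-108044894 and the 3 Gstp genes chr19:4035407-4059569. Sult2a8 spans chr7:14410686-14446769, Ugt3a1 chr15:9276888-9315032, Sult1e1 chr5:87575969-87591594 and Sult1a1 chr7:126672865-126676432.

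Members were divided by their mean level at each site, with 1 TPM as the threshold of expression. By this rule 26 members were expressed in liver tumors alone, 20 at both sites, 1 in subcutaneous tumors alone, and 5 had no value above the threshold at a site where they are listed. The liver-restricted members were 10 Ugt, 6 Gst and 10 Sult genes, and those of both sites 4 Ugt, 14 Gst and 2 Sult genes. Gsto2 was the member of subcutaneous tumors alone, and those under the threshold were Gstt4, Sult4a1, Sult6b1, Ugt1a10 and Ugt1a2. Members just inside the liver threshold were Gsta1 (2.70 TPM), Ugt2b37 (4.26 TPM) and Sult1c2 (4.52 TPM), and those just outside Gsto2 (0.796 TPM), Sult6b1 (0.390 TPM) and Sult4a1 (0.199 TPM). In subcutaneous tumors Ugt1a6a (1.41 TPM), Gstt1 (1.71 TPM) and Ugt2b35 (1.75 TPM) were just inside, and Sult5a1 (0.835 TPM), Gsta3 (0.816 TPM) and Sult6b1 (0.492 TPM) just outside. With a threshold of 0.5 TPM the counts for liver alone and for both sites were 24 and 23, and with 2 TPM they were 29 and 17. The table of subcutaneous tumors lists only genes above 0 in at least 2 libraries. Of the 17 members it does not list, 15 were placed by the untreated libraries, where the highest subcutaneous value was 0.0399 TPM. Gstt4 and Ugt1a2 have no subcutaneous value in the tables used and were placed by their liver level alone.

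**Figure D1:**
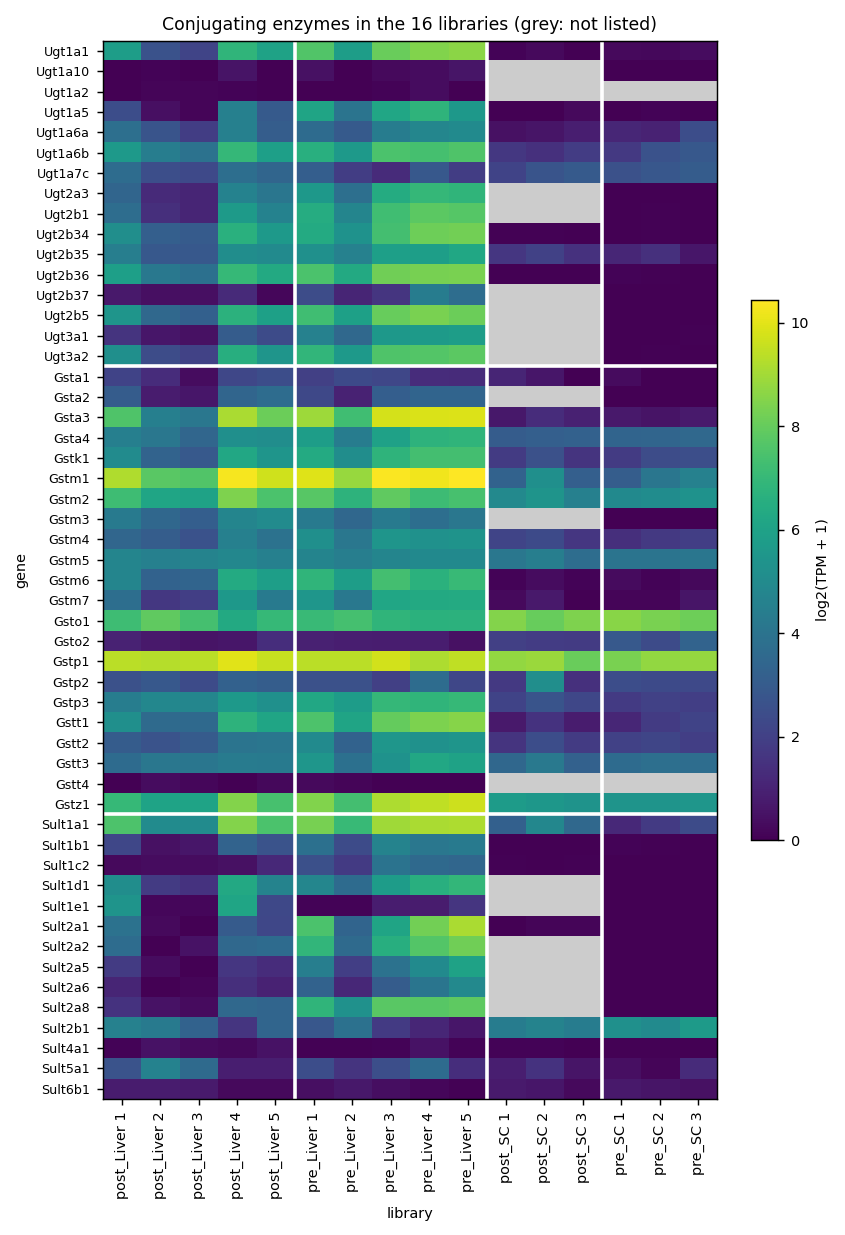
Level of each member (rows, by enzyme class) in each of the 16 libraries (columns), as log2(TPM + 1); grey marks members not listed for a library. Most Ugt and Sult rows are bright in the 10 liver libraries and dark in the 6 subcutaneous ones, while Gstp1, Gsto1 and Gstm5 are present throughout.

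Glucuronosyltransferase transcripts were far more abundant in liver tumors than in subcutaneous ones. The summed level of the 16 Ugt genes was 65.9 to 834.4 TPM in post_Liver, 433.1 to 2251 TPM in pre_Liver, 8.21 to 12.2 TPM in post_SC and 10.1 to 18.9 TPM in pre_SC. Ugt2b36, Ugt1a1 or Ugt1a6b led the class in each liver library. Ugt1a1, the bilirubin glucuronosyltransferase, averaged 48.3 ± 46.1 TPM in post_Liver and 253 ± 136 TPM in pre_Liver (SD, n = 5 each), and its highest value in a subcutaneous tumor was 0.281 TPM. In subcutaneous tumors Ugt1a7c led in all 6 libraries, with 38.2% to 55.2% of the class. It stood at 5.16 ± 1.73 TPM in post_SC and 6.18 ± 1.07 TPM in pre_SC (SD, n = 3 each), and its range in liver tumors was 3.94 to 12.6 TPM in post_Liver and 1.44 to 7.61 TPM in pre_Liver.

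Glutathione S-transferases were abundant at both sites, with a different make-up. The summed level of the 22 Gst genes was 1305 to 4152 TPM in post_Liver, 2038 to 5314 TPM in pre_Liver, 725.5 to 953.8 TPM in post_SC and 853.5 to 911.4 TPM in pre_SC. Gstm1, a mu class enzyme, or Gstp1 led in liver tumors. Gstp1 or Gsto1, an omega class enzyme with thioltransferase activity, led in subcutaneous tumors. Gstp1 averaged 748 ± 162 TPM in post_Liver, 685 ± 99.4 TPM in pre_Liver, 387 ± 104 TPM in post_SC and 401 ± 63.0 TPM in pre_SC (SD, n = 5, 5, 3 and 3). Gstm1 covered 195 to 1260 TPM in post_Liver, 461 to 1397 TPM in pre_Liver, 7.998 to 36.1 TPM in post_SC and 7.50 to 23.0 TPM in pre_SC, so that the sites did not overlap. Gstz1, the zeta class enzyme of tyrosine breakdown, was the third most abundant Gst of subcutaneous tumors at 45.9 ± 5.51 TPM in post_SC and 42.8 ± 1.43 TPM in pre_SC (SD, n = 3 each).

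The leading sulfotransferase differed between the sites. The 14 Sult genes summed to 56.5 to 550.0 TPM in post_Liver, 227.4 to 1909 TPM in pre_Liver, 29.6 to 55.0 TPM in post_SC and 34.0 to 57.4 TPM in pre_SC. Sult1a1, the phenol sulfotransferase, led in all 10 liver libraries. Sult2b1, the cholesterol sulfotransferase of epithelia, made up 89.6% to 94.0% of the class in pre_SC and led in all subcutaneous libraries except post_SC replicate 2, where Sult1a1 held 50.6%. Genes of the Sult2a group, which sulfate bile acids and steroids such as DHEA, were absent or nearly so from subcutaneous tumors, where Sult2a1 reached at most 0.0964 TPM and the others were not listed or at 0 in untreated tumors.

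**Figure D2:**
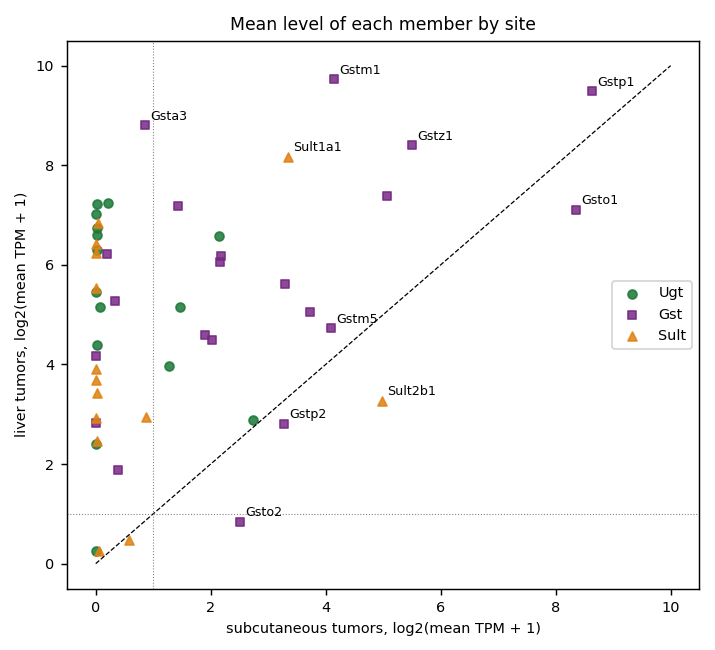
Mean level of each member in the 6 subcutaneous libraries (x axis) and the 10 liver libraries (y axis), as log2(mean TPM + 1), by enzyme class; the dashed line marks equal levels and dotted lines 1 TPM. Most points lie above the line, and Gsto1, Sult2b1 and Gsto2 lie clearly below it.

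Before treatment, liver tumors were set against subcutaneous tumors to ask how the site changes the conjugating enzymes. The 46 members with a mean of at least 1 TPM over these 8 libraries were tested, and 25 of them are liver-restricted by the levels above, so that they passed this filter through the liver tumors. Their calls follow from how they were chosen and are given as a description. Of the 20 members found at both sites, 16 were higher in liver tumors, 2 were lower and 2 were not called by limma at an adjusted p under 0.05. Over all 46, 41 were higher and 3 lower. Among all 13725 genes 15.3% were called higher and 33.5% lower. The median log2 difference was 2.73 for the members found at both sites, against −0.52 over all genes. Among these, Sult1a1 averaged 408 ± 186 TPM in pre_Liver and 2.62 ± 1.44 TPM in pre_SC (SD, n = 5 and 3; 6.72 ± 0.51, limma adjusted p = 3.1e-05) and Gstm1 differed by 6.02 ± 0.44. Of the liver-restricted members, Gsta3, an alpha class transferase, averaged 666 ± 345 TPM in pre_Liver and 0.593 ± 0.118 TPM in pre_SC (SD, n = 5 and 3), a log2 fold change of 8.44 with an SE of 0.58 (limma adjusted p = 1.8e-05). Others with large differences were Ugt2b36 (7.66 ± 0.44), Ugt2b5 (7.50 ± 0.50) and Ugt1a1 (7.42 ± 0.58), each with its SE. The order of these sizes depends on the pseudocount: with 0.1 in place of 1, Ugt2b5 (10.82) and Ugt2b36 (10.64) exceeded Gsta3 (9.65). Sult2a8, a bile acid sulfotransferase of mouse liver, differed by 7.08 ± 0.56 and Ugt3a2 by 7.06 ± 0.46. Beside these members, all 25 hepatocyte markers were higher in pre_Liver, with a median log2 difference of 9.86. The part of hepatocyte content in the member differences was not tested.

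The 3 members that were lower in liver tumors are ones that subcutaneous tumors carry. Sult2b1 was at 6.12, 13.7, 2.36, 1.13 and 0.559 TPM in pre_Liver against 36.7, 30.7 and 51.2 TPM in pre_SC, a log2 fold change of −3.27 with an SE of 0.68 (limma adjusted p = 0.00826). The highest liver value lies below the lowest subcutaneous one. Gsto1 averaged 121 ± 26.5 TPM in pre_Liver and 331 ± 50.9 TPM in pre_SC (SD, n = 5 and 3; −1.46 ± 0.21, limma adjusted p = 0.00142), and its neighbour Gsto2 differed by −2.10 ± 0.25 (limma adjusted p = 0.000421). Gsto2 is the member of subcutaneous tumors alone by the levels above and passed the filter through them. Its call follows from how it was chosen and is given as a description. All 12 carcinoma epithelium markers were lower in liver tumors as well, with a median of −2.59 and a summed level of 719.1 to 3285 TPM in pre_Liver against 5129 to 5567 TPM in pre_SC. Their part in these 3 results was not tested. Gstp2 (0.22 ± 0.36) and Ugt1a7c (−0.63 ± 0.41) were not called. The calls of Gstp1 (0.76 ± 0.20, limma adjusted p = 0.0192) and Gstt3 (1.65 ± 0.49, limma adjusted p = 0.0268) ended when any 1 of the pre_SC libraries was left out. So did that of Ugt2b37. Gstt3 also lost its call without pre_Liver replicate 3 or 5 and within the first batch described below. Sult5a1 lost its call without pre_Liver replicate 3, pre_SC replicate 1 or pre_SC replicate 2. With the batch constant left in the deposited values, and values below 0 set to 0, 36 members were higher and 3 lower. The differences, which include that constant, were 1.63 for Gsta3, 1.84 for Ugt2b36 and 1.37 for Ugt1a1. Among the calls that ended there were those of Sult2a1 (0.46, limma adjusted p = 0.277), Sult2a5 (0.65, limma adjusted p = 0.143), Sult5a1 (0.71) and Ugt2b37 (0.35). Within the first batch, inferred from the sign of that constant (pre_Liver replicates 1 to 3 against pre_SC), 40 members were higher and 3 lower.

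After treatment the sites still differed, as a description without a test because the tables were normalised separately. Of 32 members with a mean of at least 1 TPM, 22 were higher in every post_Liver than in every post_SC library and 2, Gsto1 and Gsto2, were lower. Over all genes these shares were 14.1% and 13.7%. Among the 22, Gsta3, Gstm6, Gstm7, Sult1b1, Ugt1a1, Ugt2b34 and Ugt2b36 are liver-restricted by these levels and passed the filter through the liver tumors. Gsto2 averaged 0.847 TPM in post_Liver and passed it through the subcutaneous tumors. The separation of all these members follows from how they were chosen. Sult2b1 covered 2.08 to 23.4 TPM in post_Liver and 19.7 to 24.6 TPM in post_SC, so the groups overlapped.

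In liver tumors given paclitaxel, 4 of the 5 Sult2a genes and single other Sult, Ugt and Gst genes were called lower, of which Sult2a8 held its call most widely. Of 46 members tested, 9 fell and none rose (limma adjusted p under 0.05), where 1.41% of all 13008 genes fell and 2.24% rose. Members tested had a mean of at least 1 FPKM over the 10 liver libraries. Of the 9, Sult1c2 and Sult2a5 averaged under 1 FPKM in post_Liver, so they passed this filter through pre_Liver. Their calls are given as a description. At an unadjusted p under 0.05, 31 members were lower and 1 higher, where 4123 of all 13008 genes passed in either direction. Among the 31, Sult2a6 and Ugt2b37 also averaged under 1 FPKM in post_Liver and passed the filter through pre_Liver. The median that follows includes all such members. The median log2 difference of the members was −1.67, against 0.37 over all genes. By class, 5 of 12 Sult, 2 of 14 Ugt and 2 of 20 Gst genes fell, and by site 7 of 26 liver-restricted members and 2 of 20 members of both sites. Hepatocyte markers stood beside this with 25 of 25 below 0, none of them called, at a median of −2.21. Neutrophil markers rose in 6 of 6, with a median of 3.10 and a summed level of 2035 to 15700 TPM in post_Liver against 136.2 to 1008 TPM in pre_Liver. The 11 carcinoma epithelium markers tested were all above 0 and none was called. Of 6 Kupffer cell markers, all below 0, 1 fell. The part of these cell types in the member changes was not tested beyond the hepatocyte term described below.

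Sult2a8 had the largest fall. It was at 0.980, 0.220, 0.120, 5.48 and 4.93 FPKM in post_Liver against 61.5, 19.9, 117.5, 107.2 and 122.6 FPKM in pre_Liver. Every treated library lay below every untreated one, and the log2 fold change was −4.85 ± 0.65 (SE; limma adjusted p = 0.00576). Ugt3a1, which in humans uses N-acetylglucosamine as its sugar donor, was at 1.01, 0.290, 0.200, 3.77 and 2.16 FPKM in post_Liver against 12.53, 5.45, 24.9, 25.9 and 29.1 FPKM in pre_Liver. Its groups did not overlap either, and it differed by −3.05 ± 0.51 (SE; limma adjusted p = 0.0130).

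Sult1c2, a sulfotransferase of small phenols, showed 0.10, 0.14, 0.14, 0.21 and 0.65 FPKM in post_Liver against 2.59, 1.29, 7.86, 5.53 and 5.2 FPKM in pre_Liver. The groups were separate (−2.003 ± 0.34, limma adjusted p = 0.0135). Gstp3, the third pi class gene, was at 10.4, 14.8, 14.6, 25.1 and 19.0 FPKM in post_Liver against 41.3, 28.0, 66.8, 57.5 and 66.6 FPKM in pre_Liver. It fell by 1.56 ± 0.29 on the log2 scale (limma adjusted p = 0.0196) with groups that did not overlap, while its neighbour Gstp1 was at 392 ± 82.8 FPKM in post_Liver and 361 ± 59.0 FPKM in pre_Liver (SD, n = 5 each; 0.11 ± 0.21, limma adjusted p = 0.676). The Gstp1 value turned to −0.29 with scaling by the median of ratios. In all, 5 of the 46 members lay lower in every treated library (the 4 above and Sult2a5), against 1.47% of all genes, and none lay higher, against 5.16%.

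The other Sult2a genes had a wide spread. Sult2a1, which sulfates DHEA and bile acids, was at 7.24, 0.110, 0, 3.71 and 1.87 FPKM in post_Liver against 97.4, 4.92, 36.3, 149 and 296 FPKM in pre_Liver (−4.58 ± 1.00, limma adjusted p = 0.0366). The groups overlap through pre_Liver replicate 2, the lowest untreated library. Sult2a2 differed by −3.96 ± 0.89 (limma adjusted p = 0.0399), Sult2a5 by −2.80 ± 0.60 (limma adjusted p = 0.0337) and Sult2a6, not called, by −2.10 ± 0.51 (limma adjusted p = 0.0506). Ugt1a5 changed by −3.26 ± 0.71 (limma adjusted p = 0.0363) and Gstm4, a mu class enzyme, by −1.48 ± 0.35 (limma adjusted p = 0.0448). Members that dominate the liver pool were not called, among them Ugt1a1 (−2.94 ± 0.90), Ugt2b36 (−2.25 ± 0.61), Gsta3 (−2.42 ± 0.96), Gstm1 (−1.05 ± 0.54) and Sult1a1 (−1.79 ± 0.70).

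**Figure D3:**
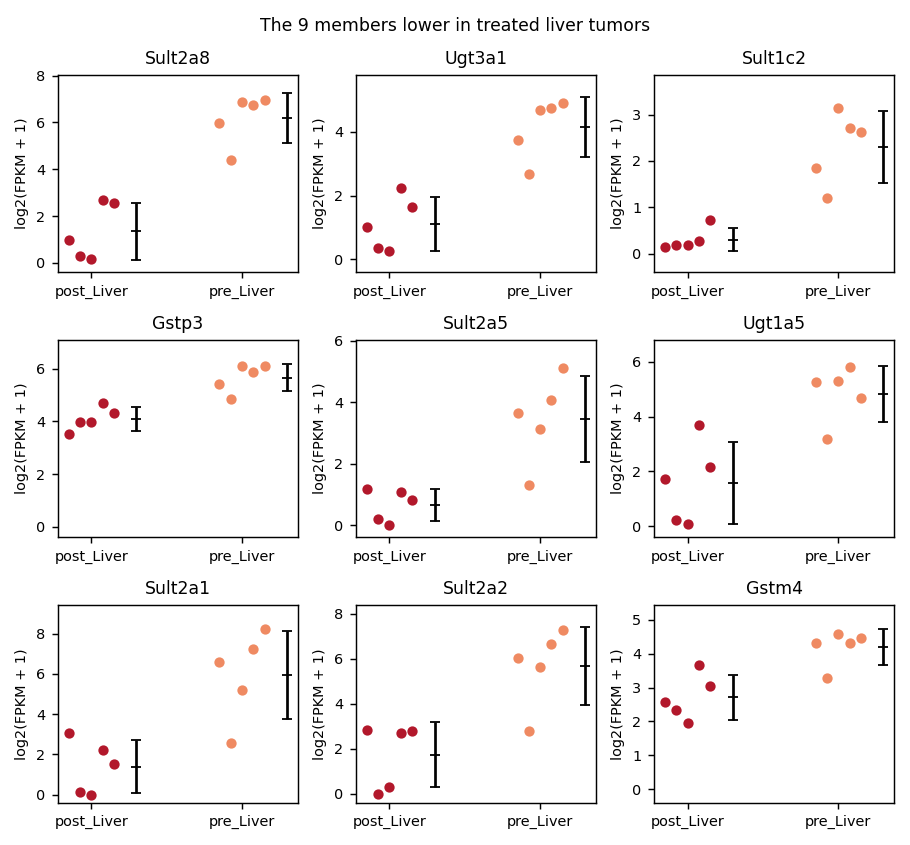
The 9 members lower in post_Liver than in pre_Liver, as log2(FPKM + 1) in each library, with the mean and SD beside the points. In Sult2a8, Ugt3a1, Sult1c2, Gstp3 and Sult2a5 the 5 treated libraries lie below the 5 untreated ones, and in the others the groups overlap.

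These calls depend on single libraries. Leaving out 1 library at a time gave 3 to 30 members lower, with 30 without pre_Liver replicate 2, 26 without post_Liver replicate 4 and 3 or 4 without any other. Without pre_Liver replicates 4 and 5, none was called, and Sult2a8 stood at −4.41 (limma adjusted p = 0.0538). These 2 libraries are taken as a second batch because a constant per gene has the opposite sign in their deposited untreated values. The labels name no batch. Sult2a8 kept its call in 19 of 20 alternatives, Ugt3a1 in 18 and Sult1c2 in 17. Gstp3 kept its call in 9, Ugt1a5 and Gstm4 in 5 each, and Sult2a1, Sult2a2 and Sult2a5 in 4 to 6. Without post_Liver replicates 2 and 3, Sult2a8 was the only member called (−4.11, limma adjusted p = 0.043). The other 8 were Ugt3a1 (−2.52, limma adjusted p = 0.066), Sult1c2 (−1.93, limma adjusted p = 0.0736), Gstp3 (−1.48, limma adjusted p = 0.0888), Sult2a5 (−2.43), Sult2a1 (−3.70), Sult2a2 (−2.91), Ugt1a5 (−2.31) and Gstm4 (−1.10).

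Within the liver libraries member levels were set against the mean of the hepatocyte markers. Because post_Liver replicates 2 and 3 form a cluster of their own, correlations were taken over the other 8 libraries. Of 46 members, 40 had a positive Pearson r. By exact permutation with Benjamini-Hochberg adjustment over all 13008 genes, 29 members were positive at an adjusted p under 0.05 and 2 negative, where 10.6% of all genes were positive and 48.0% negative. Sult1a1 had r = 0.972 (adjusted exact permutation p = 0.00382) and Spearman rho = 0.976 (adjusted exact permutation p = 0.00587), with r = 0.960 without the 2 libraries farthest from the median. Sult2b1 ran the other way, with r = −0.972 (adjusted exact permutation p = 0.00389), rho = −0.952 (adjusted exact permutation p = 0.00697) and r = −0.981 without the 2 farthest. Gsto1 was also negative, with r = −0.787 (adjusted exact permutation p = 0.0413), rho = −0.810 (adjusted exact permutation p = 0.0412) and r = −0.584 without them. Gstp1 had r = 0.137 (adjusted exact permutation p = 0.765) and rho = 0.190 (adjusted exact permutation p = 0.706). The pooled libraries hold both treatment groups, so these relations include the difference between them.

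With the hepatocyte marker mean as a term in the fit, 3 members were lower after treatment and 1 was higher, where 0.807% and 1.85% of all genes were. Sult2a8 changed by −3.48 ± 0.42 (SE; limma adjusted p = 0.0152), Ugt3a1 by −1.97 ± 0.32 (limma adjusted p = 0.0250) and Ugt3a2 by −0.71 ± 0.15 (limma adjusted p = 0.0434). Sult1e1, the estrogen sulfotransferase, was the member that rose, by 3.89 ± 0.66 (limma adjusted p = 0.0250). It was at 21.2, 0.08, 0.08, 36.2 and 1.91 FPKM in post_Liver against 0.04, 0.04, 0.42, 0.36 and 1.1 FPKM in pre_Liver. The level was high in post_Liver replicates 1 and 4, near the highest untreated value in replicate 5, and low in replicates 2 and 3. Sult1e1 averaged under 1 FPKM in pre_Liver, so it passed the filter on the mean level through post_Liver. Its calls here, with and without those replicates, are given as a description. Without the hepatocyte term Sult1e1 was not called (1.86 ± 0.96, limma adjusted p = 0.195). With that term and without post_Liver replicates 2 and 3, 6 members were lower and 1 higher, where 1.85% and 4.09% of all 12850 genes were. They were Sult2a8 (−3.37), Ugt3a1 (−1.86), Ugt3a2 (−0.71), Gstp3 (−1.07), Sult1c2 (−1.56) and Ugt2b1 (−1.19), and Sult1e1 (3.81 ± 0.70, limma adjusted p = 0.029).

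**Figure D4:**
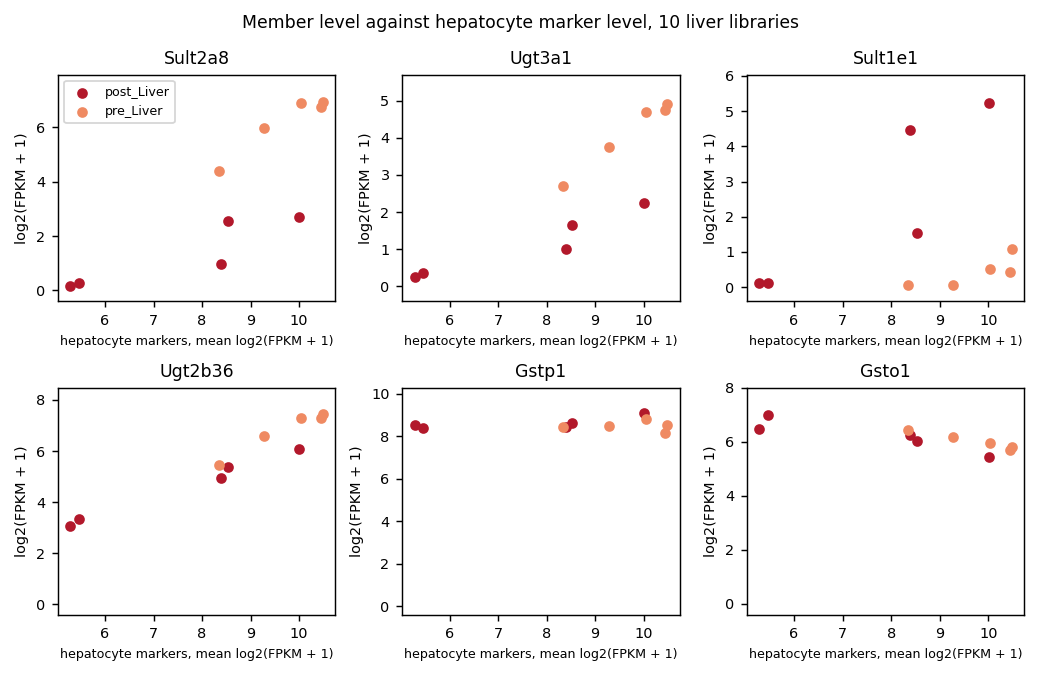
Level of 6 members against the mean of the hepatocyte markers in the 10 liver libraries, both as log2(FPKM + 1), with post_Liver in dark red and pre_Liver in orange. Sult2a8 and Ugt3a1 lie lower in treated libraries at like marker levels, Sult1e1 is high in 2 treated libraries, and Gstp1 stays level. Ugt2b36 rises with the markers in both groups. It also lies lower in treated libraries at like marker levels, by −0.79 ± 0.20 (SE) with the hepatocyte term (limma adjusted p = 0.0659, not called).

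Promoter windows of 300 bases around the annotated start (RefSeq, GRCm38.p6) were available for 45 members in 56 windows. Those of Ugt3a1, Sult2a8 and Sult1e1 are shown because these members were called with the hepatocyte term, and that of Gsta3 because it holds an antioxidant response element core. Ugt3a2 was also called with that term but had no window. Capitals mark a motif found by an exact search of both strands. The antioxidant response element core TGACNNNGC, which NRF2 binds, occurred in 12.39% of 32851 windows and among members in Gsta3, Gstm5 and Gstm7. The xenobiotic response element core TNGCGTG of the aryl hydrocarbon receptor occurred in 5.07% of windows, and among members in Gsta2, Sult1d1 and Ugt1a5. A palindrome bound by HNF1 factors was found in 13 windows (0.04%), of which 1 belongs to a member, Ugt3a1, where it matches on the reverse strand and begins 130 bases before the start. A match is a run of letters and does not show binding.
Ugt3a1, chr15:9279579-9279878, plus strand, HNF1 palindrome in capitals: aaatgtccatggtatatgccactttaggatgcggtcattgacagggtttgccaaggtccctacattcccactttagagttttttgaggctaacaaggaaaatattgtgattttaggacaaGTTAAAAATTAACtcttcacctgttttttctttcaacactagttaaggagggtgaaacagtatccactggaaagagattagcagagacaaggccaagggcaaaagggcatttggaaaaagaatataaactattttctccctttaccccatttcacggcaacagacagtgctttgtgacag
Sult2a8, chr7:14446538-14446837, minus strand, no match: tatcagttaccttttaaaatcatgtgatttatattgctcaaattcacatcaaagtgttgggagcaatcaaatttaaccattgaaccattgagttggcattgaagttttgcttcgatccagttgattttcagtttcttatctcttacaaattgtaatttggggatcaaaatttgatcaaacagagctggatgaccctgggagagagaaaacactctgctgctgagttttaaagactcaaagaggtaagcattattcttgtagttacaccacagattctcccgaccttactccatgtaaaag
Sult1e1, chr5:87591562-87591861, minus strand, no match: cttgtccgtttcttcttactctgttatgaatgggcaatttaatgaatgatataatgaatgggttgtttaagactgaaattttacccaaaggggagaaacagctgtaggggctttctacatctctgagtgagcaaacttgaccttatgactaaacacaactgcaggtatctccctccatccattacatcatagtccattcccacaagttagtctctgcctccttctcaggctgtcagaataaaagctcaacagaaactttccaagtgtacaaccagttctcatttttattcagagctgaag
Gsta3, chr1:21240335-21240634, plus strand, antioxidant response element core in capitals: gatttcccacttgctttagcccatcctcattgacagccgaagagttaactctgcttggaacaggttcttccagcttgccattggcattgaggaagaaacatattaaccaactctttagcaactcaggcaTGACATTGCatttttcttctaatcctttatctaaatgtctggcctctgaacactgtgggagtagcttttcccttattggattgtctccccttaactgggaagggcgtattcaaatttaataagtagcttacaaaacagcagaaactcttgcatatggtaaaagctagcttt
The RefSeq start of Ugt3a1 lies inside the GENCODE span of the gene given above. Sult2a8 has a second window at another annotated start, which also holds none of these motifs. Windows of different members were also set against each other in pairs, without gaps and at the best single shift. The closest pair by this measure, Ugt2b37 and Ugt2b5, was identical at 53.2% of 278 aligned bases, and Gstp1 and Gstp2 at 47.7% of 287. Sult2a8 and Ugt1a5, of different classes, reached 37.8%. A gain or loss of bases puts the rest of a pair out of register, so these shares can understate how alike neighbours are.

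In subcutaneous tumors, 1 sulfotransferase, Sult1a1, rose with paclitaxel and the other members tested were not called. Of 21 members tested, 1 rose and none fell (limma adjusted p under 0.05), where 2.66% of all 13363 genes rose and 4.27% fell. At an unadjusted p under 0.05, 1 member was higher and 2 were lower, where 3656 of all 13363 genes passed in either direction. Sult1a1 was at 8.22, 27.7 and 10.6 TPM in post_SC against 1.29, 2.41 and 4.15 TPM in pre_SC. Every treated library exceeded every untreated one, and the log2 fold change was 2.08 ± 0.47 (SE; limma adjusted p = 0.0426). That call ended on leaving out any 1 library other than post_SC replicate 2 (limma adjusted p between 0.0397 and 0.124 over 10 alternatives). Beside it, 3 of 5 endothelial markers rose, with a summed level of 220.4 to 262.5 TPM in post_SC against 93.54 to 139.7 TPM in pre_SC, and their part in the Sult1a1 result was not tested.

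The members with higher levels in subcutaneous than in liver tumors were not called. Sult2b1 was at 19.6, 24.4 and 20.1 TPM in post_SC against 36.7, 30.7 and 51.1 TPM in pre_SC (−0.83 ± 0.20, limma adjusted p = 0.0528). Gsto2 was at 2.96, 2.63 and 2.55 TPM in post_SC against 6.60, 4.19 and 9.10 TPM in pre_SC (−0.99 ± 0.27, limma adjusted p = 0.0670). In both genes the groups did not overlap. In all, 4 of 21 members were lower in every treated library and 3 higher, against 18.7% and 16% of all genes, which are near the shares of the members. Gstp2 was at 2.31, 35.0 and 1.69 TPM in post_SC against 4.59, 4.06 and 3.93 TPM in pre_SC, so that 1 treated library was high and the other two were lower than every untreated one. Its difference was 0.40 ± 0.89 (limma adjusted p = 0.799) with post_SC replicate 2 and −0.80 without it. Gstp1 and Gsto1 differed by −0.08 ± 0.22 and −0.06 ± 0.17.

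**Figure D5:**
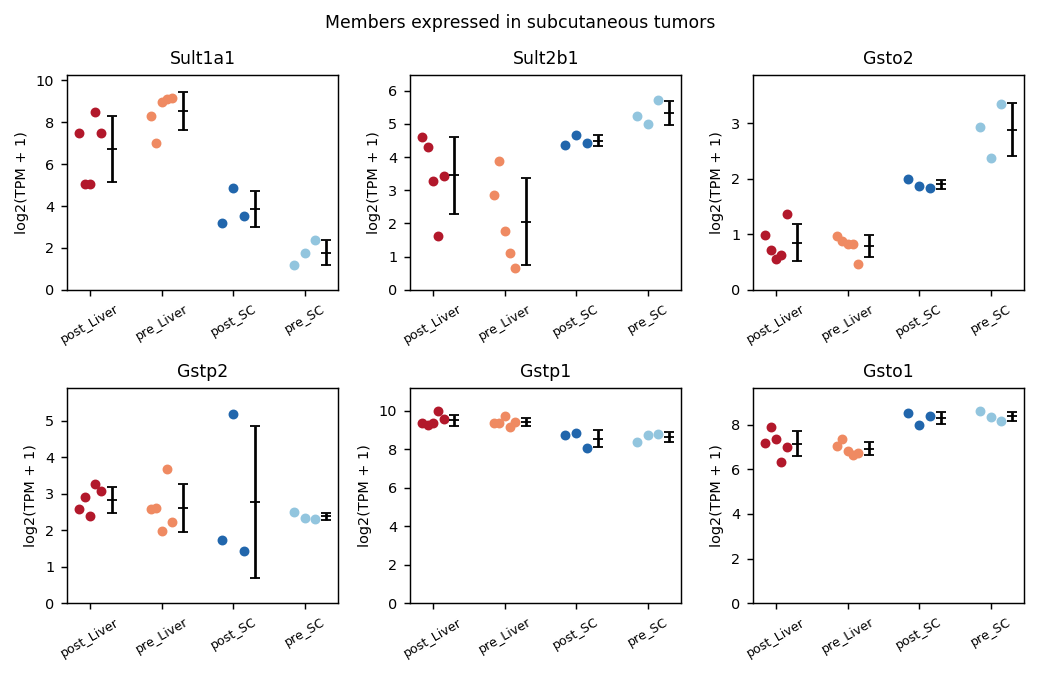
The 6 plotted members are expressed in subcutaneous tumors and shown as log2(TPM + 1) in each library of post_Liver, pre_Liver, post_SC and pre_SC, with the mean and SD beside the points. Sult1a1 is higher in post_SC than in pre_SC, Sult2b1 and Gsto2 are lower, and Gstp2 is high in post_SC replicate 2 alone among the treated subcutaneous libraries.

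Whether the responses differ between sites was tested by the interaction of site and treatment. Of 33 members tested, 2 had a lower response in liver than in subcutaneous tumors and none a higher one, where 0.795% and 2.23% of all 13705 genes did. At an unadjusted p under 0.05 the counts were 15 and 2, where 3446 of all 13705 genes passed in either direction. Gstp3 had a log2 response of −1.56 in liver tumors and 0.45 ± 0.23 (SE) in subcutaneous tumors, where it was at 3.32, 5.62 and 3.60 TPM in post_SC against 2.40, 3.05 and 2.79 TPM in pre_SC. The difference was −2.04 ± 0.43 (limma adjusted p = 0.0232). Sult1c2 differed by −2.60 ± 0.55 (limma adjusted p = 0.0232), but its subcutaneous level never exceeded 0.0575 TPM, so the difference is that of the liver response. It also passed the filter on the mean level through pre_Liver, the group where it is high. Sult1a1, with a liver response of −1.79 and a subcutaneous response of 2.08, differed by −3.88 ± 1.06 and was not called (limma adjusted p = 0.0606). Both calls were lost without any 1 of the pre_SC libraries.

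Genes that supply and export conjugates were read from lists beside the members. Over all genes tested, 15.3% were higher and 33.5% lower in pre_Liver against pre_SC. In treated liver tumors 2.24% rose and 1.41% fell, and in treated subcutaneous tumors 2.66% rose and 4.27% fell. The list counts here and in the following paragraphs stand beside these shares. Of 13 genes for glutathione supply, 9 were higher and 1 lower in pre_Liver against pre_SC, 2 of 13 fell in treated liver tumors and 1 of 12 rose in treated subcutaneous tumors. The genes that fell in liver were Gclc, the catalytic subunit of glutamate-cysteine ligase (−1.50 ± 0.31, limma adjusted p = 0.0289), and Chac2, which cleaves glutathione (−1.19 ± 0.25, limma adjusted p = 0.0311). Of 9 genes for the cosubstrates of glucuronide and sulfate transfer, 4 were higher and 2 lower in pre_Liver. Papss2, the PAPS synthase, was higher by 4.62 and the sulfate carrier Slc26a1 by 6.01. None of 9 was called in treated liver tumors and none of 8 in treated subcutaneous tumors. Their summed level was 352.7 to 406 TPM in post_Liver against 406.4 to 813.3 TPM in pre_Liver, and 358.5 to 443.1 TPM in post_SC against 333 to 347.2 TPM in pre_SC. The treated sums lay below the untreated ones in liver and above them in subcutaneous tumors without overlap, which was not tested. In the liver response Slc26a1 stood at −2.45 (limma adjusted p = 0.0533) and Papss2 at −2.38 (limma adjusted p = 0.0879).

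Among 7 conjugate exporters 3 were higher and 1 lower in pre_Liver, led by Abcc2 (5.52), the canalicular exporter of glucuronides, and Abcc6 (5.03). Abcc6 fell in treated liver tumors (−2.15, limma adjusted p = 0.0482), and Abcc4 rose in treated subcutaneous tumors (1.40, limma adjusted p = 0.0170). Of 9 deconjugating enzymes, 2 were higher and 1 lower in pre_Liver, none was called in treated liver tumors and 1, Ggt5, fell in treated subcutaneous tumors. Other conjugating enzymes outside the member families were mostly higher in untreated liver tumors, with 12 of 15 higher and 1 lower in pre_Liver. Inmt, an N-methyltransferase, was the 1 of 14 that fell in treated liver tumors (−4.95, limma adjusted p = 0.0180), and none of 11 was called in treated subcutaneous tumors.

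Of 13 transcription factors that control these genes, 7 were higher and 5 lower in pre_Liver, where 15.3% and 33.5% of all genes were. The count of lower ones is near the share over all genes. The higher ones were led by Hnf4a (7.12), Nr1i3 (5.999), which encodes the drug sensor CAR, and Nr1h4 (5.61), which encodes the bile acid receptor FXR. None of 13 was called in treated liver tumors, and Nr1h4 alone of 8 rose in treated subcutaneous tumors (1.85, limma adjusted p = 0.0160). Of 17 NRF2 target genes, 8 were higher and 3 lower in pre_Liver. In treated liver tumors 2 rose, G6pdx (1.56, limma adjusted p = 0.0339) and Pgd (1.00, limma adjusted p = 0.0399) of the pentose phosphate pathway, and 3 fell, Gclc, Me1 and Osgin1. In treated subcutaneous tumors 2 of 17 fell, Hmox1 (−1.44, limma adjusted p = 0.0170) and Tkt. Gclc stands on 2 of these lists.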

How the data were processed

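RNA sequencing of 16 digested tumors was read from tables the authors deposited. Per the submitters' processing notes, the tools were fastp and StringTie and the build was GRCm38 (mm10). Versions and roles are not given there. The liver table was deposited in FPKM and the subcutaneous table in TPM. The untreated table holds another quantity: the authors' deposited values are TPM plus or minus a batch constant per gene, with 2376 genes below 0. Subtracting it gave back TPM in 17391 of 17499 genes, with a largest error of 7.8e-06. No table holds counts, so depth is unknown. The design had assumed plain TPM in the untreated table. Gene names that had become dates (24 in each of 2 tables) were left out.

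Each comparison was fitted within 1 table over all genes with limma 3.58.1 (R 4.3.3) on log2(value + 1), keeping genes with a mean of at least 1, with Benjamini-Hochberg adjustment and a threshold of 0.05. Log2 differences are on this scale, which understates the change of low genes. The interaction used TPM rescaled over 17125 genes shared by the liver and subcutaneous tables. Levels set across sites also use that scale, and the tables were normalised separately. Marker and pathway genes are from lists. The members and lists were chosen with earlier results of these data known. Named genes are the 2 members of each subfamily with the highest mean TPM at each site, the 10 called members with the lowest adjusted p per comparison, the 3 nearest to 1 TPM on each side at each site, and up to 3 called genes of each other list. Any other gene named, such as Sult1e1 and Sult2a6, was chosen after its values were seen. Python 3.11.15 with pandas 2.3.3, NumPy 2.4.6, SciPy 1.17.1 and matplotlib 3.10.9 served for the rest. The fits were tested on simulated data. Alternatives were another pseudocount, no filter, scaling by the median of ratios, a replicate block, leaving out each library, the hepatocyte term, TPM for FPKM and the inferred batches.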

Additional observations from a re-analysis of the deposited data

Results flagged for a closer look

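Among the named members, 82 groups of liver values (41 members, on the log2(FPKM + 1) scale) were examined for a sample far from the others in its group, and 6 had one, where chance gives about 1 in 20. In pre_Liver, replicate 2 was far below the others in Gstm1 (240.8 FPKM, the others 533.1 to 734.8), Gstt2 (4.64 FPKM, the others 16.8 to 23.49) and Gstm4 (8.75 FPKM, the others 19.06 to 22.98). That library also has the lowest hepatocyte marker mean of its group (8.34), and the part of hepatocyte content was not tested. In post_Liver, Gstt3 was lowest in replicate 1 (5.87 FPKM, the others 8.83 to 10.13) and Sult1c2 highest in replicate 5 (0.65 FPKM, the others 0.1 to 0.21). Sult4a1, which is near 0 throughout, was highest in pre_Liver replicate 4 (0.21 FPKM, the others 0.02 to 0.04).

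For 2 members the response to treatment differed between the sites by the interaction test. Gstp3 had a liver response minus subcutaneous response of −2.04 and Sult1c2 of −2.60 on the log2 scale (limma adjusted p = 0.0232 for each).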

How the results depend on the processing

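The untreated site counts kept within 1.5 times of 41 higher and 3 lower under all 14 alternatives, with 36 higher and 3 lower where the batch constant was kept, and leaving out 1 library gave 36 to 41 higher and 3 lower. The liver count of 9 lower became 3 with scaling by the median of ratios, 3 with the hepatocyte term (1 higher), 3 with post_Liver replicates 2 and 3 averaged, 0 without the second batch and 31 (2 higher) with the replicate block. Leaving out 1 library gave 3 to 30 lower and 0 higher. Without post_Liver replicates 2 and 3, an alternative chosen after seeing the data, 1 was lower, and with the hepatocyte term as well, also chosen after seeing the data, 6 were lower and 1 higher. The subcutaneous count of 1 higher became 0 with no filter and with the replicate block, and 0 to 1 without 1 library. With scaling by the median of ratios 1 member was lower there. For the difference between responses, 2 lower became 1 with scaling by the median of ratios, 4 with the hepatocyte term and 10 (2 higher) with the replicate block. Without 1 library it was 0 to 13 lower and 0 to 2 higher, with 13 and 2 without pre_Liver replicate 2, 5 without post_Liver replicate 4, 1 without pre_Liver replicate 3, post_SC replicate 1 or post_SC replicate 2, and 0 without post_SC replicate 3 or any pre_SC library. The cause was not tested.

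The labels do not say whether replicate numbers pair the samples. Same-numbered deviations correlated at −0.12, 0.677, −0.014, 0.746 and 0.261 in liver tumors and at 0.129, −0.158 and −0.113 in subcutaneous ones. These mixed values do not settle whether the samples are paired. Scaling by the median of ratios moved the median of all genes in the site comparison to −0.01, against −0.52, with 3218 higher and 2490 lower in place of 2106 and 4598. In the liver response it moved to 0.03, against 0.37, with 127 higher and 94 lower in place of 291 and 183, and in the difference between responses to −0.03, against 0.39, with 187 and 134 in place of 305 and 109. Over 2113 alternatives of single members the sign changed in 75, none of them called. Unknown depth limits what can be said of members near 0.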
